A study of Homo sapiens with 6 samples.

Results

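OTX2, OTX1 and CRX form the orthodenticle family of homeobox genes, and the regions described here are the places where tagged GSX2 was found closer to 1 of these 3 genes than to any other protein-coding gene. They were chosen from 3 deposited peak lists by taking each peak's strongest summit, assigning it to the nearest protein-coding gene span, and merging peaks of the replicates that overlapped by at least 1 bp. This gave 17 of the 15743 merged regions in the lists, 15 at OTX2, 1 at OTX1 and 1 at CRX. Because the peaks themselves chose the regions, their number, fold enrichment and position are given as a description, with no test.

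OTX2 is a transcription factor of the rostral neural plate. It is required for forebrain and midbrain identity, and its caudal limit, set against GBX2, positions the boundary between midbrain and hindbrain. Later it directs photoreceptor and retinal pigment epithelium fates in the eye, where CRX acts downstream of it in photoreceptors, while OTX1 is known for its part in cortical neurons and inner ear development. GSX2, the protein precipitated here, is a homeodomain factor that patterns the lateral ganglionic eminence, from which striatal neurons arise.

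All 3 samples with values belonged to 1 group. They were cultures of H9, an established human embryonic stem cell line, that carried a wild-type GSX2 transgene with a 2xFLAG tag under the doxycycline-inducible TRE3G promoter and were differentiated toward progenitors resembling those of the lateral ganglionic eminence. Doxycycline was given at 100 ng/mL for 12 hours from day 10, and at day 10.5 the tagged protein was precipitated with the M2 FLAG antibody. Every culture therefore held transgenic GSX2 induced for 12 hours, and the labels do not say whether the line was 1 clone. No sample without the transgene or without doxycycline was analysed here, the 3 input samples have no values here, and peak lists carry no marker levels with which to check the cell type. The lists held 9859, 7471 and 9122 peaks in replicates 1, 2 and 3 and no read counts. Depth is therefore unknown, and whether a missing peak reflects depth was not tested.

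Promoter sequence is shown first. The share of all promoter windows that hold a peak was not computed, so the promoters of the family are not compared with others. RefSeq (GRCh38.p14, the same build as hg38) gives start sites for all 3 genes and for OTX2-AS1, the noncoding gene that runs away from OTX2 on the other strand. In the 250 bases before these starts, 1 peak was found, in replicate 3, at the internal start of OTX2. The 3 sequences below are that window, the window of the upstream OTX2 start, and the window of the first OTX2-AS1 start. The last held the most homeodomain core words of the 3, and no peak was called in it. Capitals mark each ATTA, the core of most homeodomain sites, read on either strand.
OTX2 internal start, chr14:56805668-56805917, minus strand: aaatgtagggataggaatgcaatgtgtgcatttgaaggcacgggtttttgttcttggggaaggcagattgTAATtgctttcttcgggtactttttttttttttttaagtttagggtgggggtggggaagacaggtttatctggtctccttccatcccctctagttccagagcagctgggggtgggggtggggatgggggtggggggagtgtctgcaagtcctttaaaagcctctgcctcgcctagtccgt
OTX2 upstream start, chr14:56810480-56810729, minus strand: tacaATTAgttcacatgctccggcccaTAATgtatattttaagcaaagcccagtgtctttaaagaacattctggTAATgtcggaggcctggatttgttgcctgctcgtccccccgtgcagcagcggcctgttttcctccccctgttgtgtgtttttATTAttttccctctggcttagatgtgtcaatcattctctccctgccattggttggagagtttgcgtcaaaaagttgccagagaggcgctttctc
OTX2-AS1 first start, chr14:56811756-56812005, plus strand: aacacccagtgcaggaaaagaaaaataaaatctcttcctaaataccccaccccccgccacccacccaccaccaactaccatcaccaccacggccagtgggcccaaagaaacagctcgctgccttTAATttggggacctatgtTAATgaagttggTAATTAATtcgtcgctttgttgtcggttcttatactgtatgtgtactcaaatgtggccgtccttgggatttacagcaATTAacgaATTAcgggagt

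The internal OTX2 window held 1 ATTA, the upstream window 4 and the first OTX2-AS1 window 7. The window of the second OTX2-AS1 start (chr14:56812908-56813157, plus strand), not printed above, held 1. Of 34943 such windows in the table, 47.5% held at least 1 ATTA on either strand. The longer word TAATTA reads the same on both strands, contains ATTA and is a site to which GSX-type homeodomains are known to bind. It was present 1 time in the first OTX2-AS1 window and in neither OTX2 window, against 4.35% of all windows with at least 1. TAATCC, searched on both strands, is the word to which OTX2 and CRX themselves bind, and it holds the same core. It was found 2 times in the window of CRX (chr19:47821687-47821936, plus strand), in none of the others, and in 5.62% of all windows. The CRX window held 3 ATTA and the OTX1 window (chr2:63050580-63050829, plus strand) held none. The peak of replicate 3 covered 118 of the 250 bases of the internal OTX2 window, with its summit 174 bases before the start and a fold enrichment of 4.83. The nearest summit of any replicate lay 4173 bases from the upstream OTX2 start. The distance was 2917 bases at the first OTX2-AS1 start, 1765 at the second, 7032 at the OTX1 start and 1952 at the CRX start. These matches describe letters in promoter windows, and the sequence under the distal peaks was not analysed here.

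OTX2 lay in a cluster of GSX2 regions. The gene spans chr14:56799905-56810479 and is transcribed toward lower coordinates. The stretch over which it is the nearest protein-coding gene, called its territory here, runs 274 kb from the midpoint toward TMEM260 on one side to the midpoint toward EXOC5, an exocyst subunit gene, on the other. In this stretch 7 regions had a peak in every replicate, 2 had one in 2 replicates and 6 in 1 replicate. Regions of every replicate were thus 46.7% of those at OTX2, against 22.5% of all merged regions, and regions of 2 or 3 replicates were 60.0%, against 45.1%. Replicates 1, 2 and 3 contributed 12, 9 and 10 peaks.

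Most regions lay on the upstream side of the gene, which is also the longer part of the territory. Of the 15 regions, 11 (73.3%) were upstream of the OTX2 start, a side that makes up 71.2% of the territory, 1 was inside the gene and 3 were beyond its other end. OTX2-AS1, which begins at position 56812006 on the opposite strand and spans 119 kb, contained 9 of them and 5 of the 7 found in every replicate. When noncoding genes could also be the nearest gene, 1 region of every replicate stayed with OTX2, the one inside it. From the first to the last of these 7 the distance was 147 kb, with gaps of 8.66 to 50.1 kb and a median gap of 20.6 kb. The regions are numbered 1 to 15 along the chromosome in the map of peaks along the territory.

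**Figure D1:**
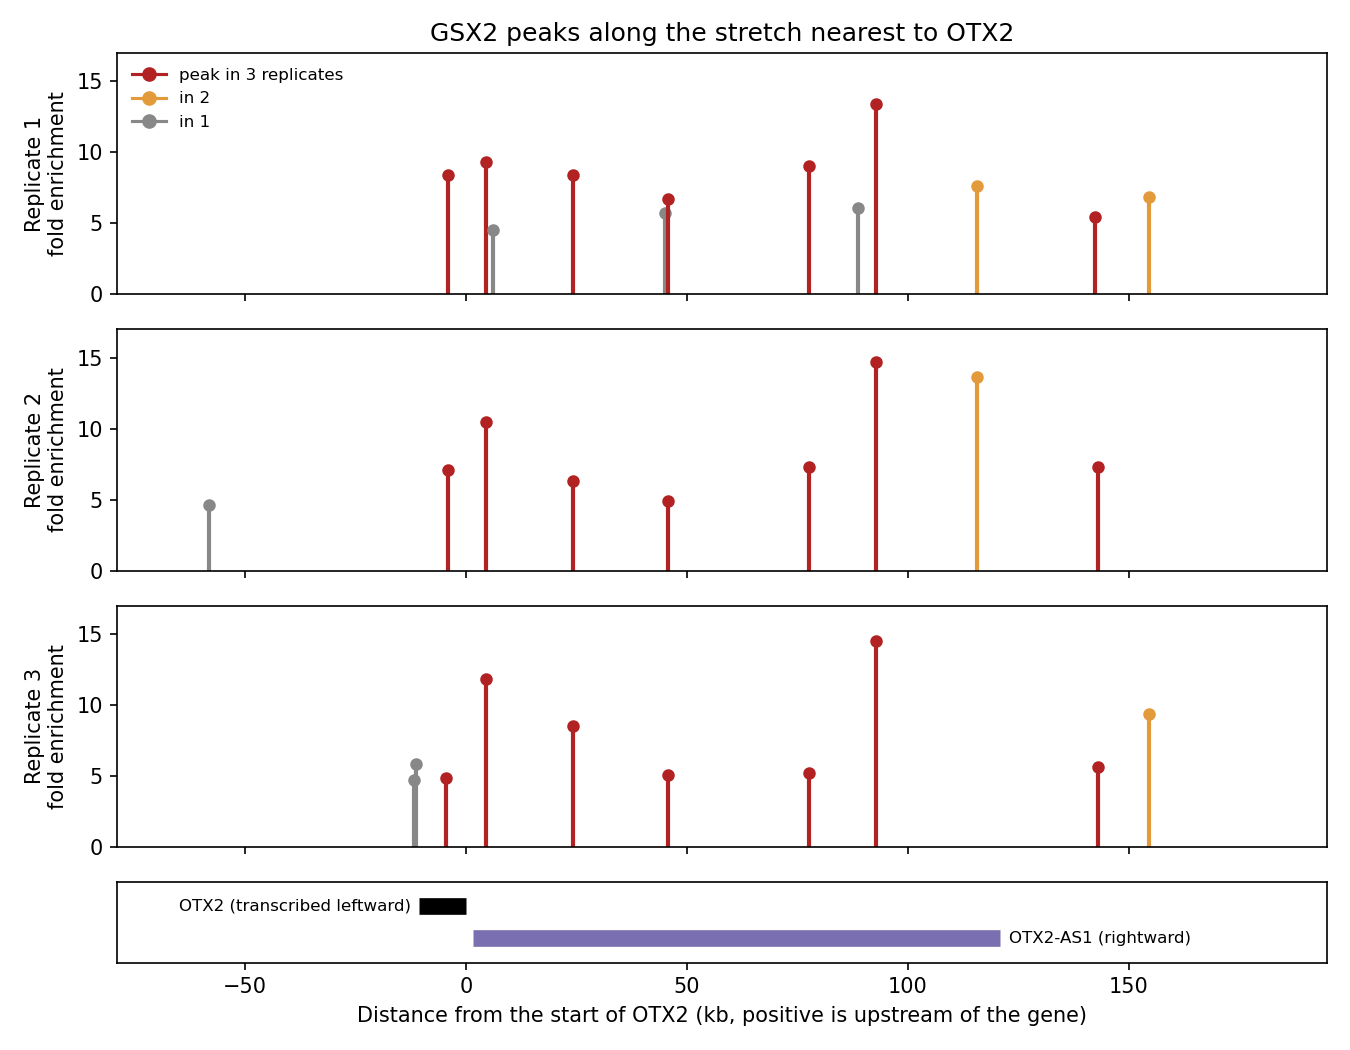
Fold enrichment (vertical axis, linear ratio over the caller's background, 1 panel per replicate) of each GSX2 peak in the stretch nearest to OTX2, against distance from the OTX2 start in kb; colour gives the number of replicates with a peak, and bars below show the spans of OTX2 and OTX2-AS1. The tallest peak of each replicate stands 92.9 kb upstream of the start, and most peaks found in every replicate lie over OTX2-AS1.

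The strongest region, number 12, was at chr14:56903169-56903829, inside OTX2-AS1 and 92.9 kb upstream of the OTX2 start. Replicates 1, 2 and 3 gave it fold enrichments of 13.4, 14.7 and 14.5 (mean 14.2 ± 0.686, SD, n = 3), with summits within 14 bp of each other. It ranked first among the 7 in each replicate, and the authors' −log10 q was 36.3, 30.1 and 36.1. Set against the whole lists, it exceeded 92.2%, 93.1% and 93.3% of the peaks of the 3 replicates in fold enrichment, and 85.3% of the regions of every replicate by mean.

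The nearest region on the upstream side of the start, number 5, was at chr14:56814685-56815161, 4.46 kb upstream. Its fold enrichment was 9.33, 10.5 and 11.8, a mean of 10.6 ± 1.25 (SD, n = 3), and its summits lay within 19 bp. It was second among the 7 regions of every replicate in each replicate, its highest replicate was below the lowest of region 12, and its lowest was above the highest of the next region, so the first 2 places among the 7 were resolved by all replicates.

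The order of the other 5 was not. Region 7, 24.3 kb upstream (chr14:56834640-56834920), had fold enrichments of 8.40, 6.29 and 8.50 and a mean of 7.73 ± 1.25 (SD, n = 3). Region 10, 77.7 kb upstream (chr14:56887774-56888485), had 9.06, 7.30 and 5.22, with a mean of 7.19 ± 1.92 (SD, n = 3). Region 9, 45.7 kb upstream (chr14:56855918-56856369), had 6.69, 4.89 and 5.10, with a mean of 5.56 ± 0.985 (SD, n = 3). These values overlapped between neighbours in the order, and region 9 was stronger than only 1.95% of all regions of every replicate.

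Regions 4 and 14 counted as present in every replicate through overlap of peaks whose summits lay apart. Region 4, the one inside the gene (chr14:56805800-56806521), had fold enrichments of 8.40, 7.06 and 4.83, with a mean of 6.76 ± 1.80 (SD, n = 3). In replicates 1 and 2 the strongest summits were at 56806306 and 56806280, whereas the summit of replicate 3 was at 56805841, in the internal promoter window printed above. The peaks of replicates 2 (56806202-56806406) and 3 (56805800-56805970) did not overlap each other. Only the peak of replicate 1 (56805931-56806521) joined them into 1 region. Region 14, 143 kb upstream and beyond the end of OTX2-AS1 (chr14:56952829-56953647), had 5.45, 7.32 and 5.67, with a mean of 6.14 ± 1.02 (SD, n = 3), and its summits spread over 612 bp because that of replicate 1 stood apart from the other two. Asking for summits within 150 bp of the next left 5 regions of every replicate at OTX2. Among all regions of every replicate, 92.2% had all summits within 150 bp.

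**Figure D2:**
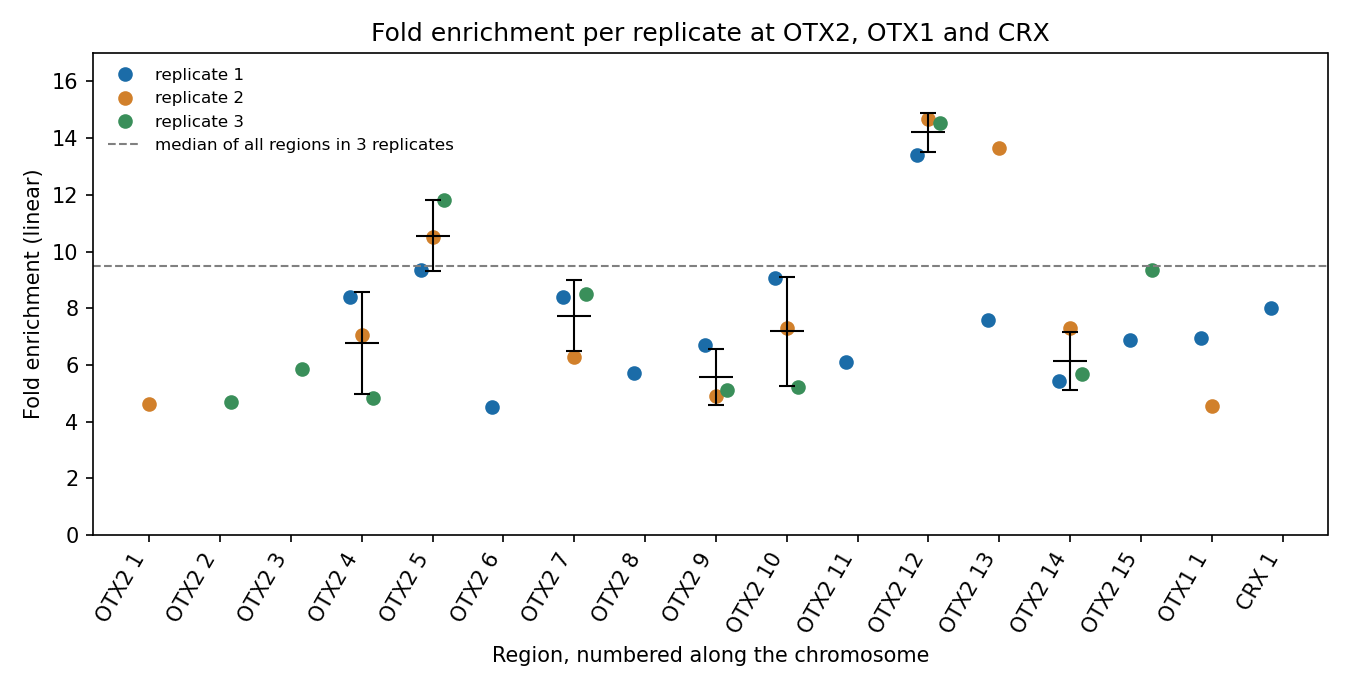
Fold enrichment (linear) of each replicate at the 15 regions of OTX2 and the single regions of OTX1 and CRX; bars are the mean and SD of the regions with a peak in all 3 replicates, and the dashed line is the median of such regions over the genome, 9.49. Regions 12 and 5 of OTX2 lie above the line by their means, and the means of the other 5 lie below it.

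The cluster was dense, and 5 of its 7 regions of every replicate were below the genome-wide median in mean fold enrichment. The median of the 7 mean fold enrichments was 7.19, against 9.49 over all regions of every replicate. Their coefficients of variation between replicates ran from 4.83% to 26.8%, with a median of 16.6%, against 19.5% over all. The 6 regions of a single replicate had fold enrichments of 4.51 to 6.10 with a median of 5.22, against 6.21 for all regions of a single replicate.

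The 2 regions missing from 1 list exceeded regions 9 and 14, found in all of them, in each replicate where they had a peak. In replicate 1 they exceeded no other region of every replicate at OTX2. Region 13, 116 kb upstream and near the end of OTX2-AS1 (chr14:56926038-56926292), had fold enrichments of 7.60 in replicate 1 and 13.6 in replicate 2 and no peak in replicate 3. In replicate 2 it came close to region 12, whose value there was 14.7. Region 15, 155 kb upstream inside the noncoding gene LOC124903323 (chr14:56964943-56965183), had 6.87 in replicate 1 and 9.36 in replicate 3 and no peak in replicate 2. Their summits agreed to 6 bp and 33 bp between the replicates that had them.

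Few genes had as many regions as OTX2, and those that did had longer territories. Of 19974 protein-coding genes, 13 (0.0651%), OTX2 among them, had at least 7 regions of every replicate, and OTX2 had the shortest territory of the 13. Regions of every replicate were spaced at 25.6 per Mb of its territory, against 1.17 per Mb over the territories of all genes. Of the 1060 other genes with a territory within 1.2 times that of OTX2, 70.9% had none, the mean was 0.371, and the highest count was 6, at EMX2, a homeobox gene of the dorsal telencephalon. The 3 other genes with exactly 7 were MECOM, a zinc finger gene (territory of 1126 kb), CADM1, a cell adhesion gene (1135 kb), and ERBB4, a neuregulin receptor gene (1742 kb). They resemble OTX2 in the count alone, with territories from 4.11 to 6.36 times as long. When peaks under a −log10 q of 10 were dropped, OTX2 kept 2 regions of every replicate, regions 5 and 12. Then 57 other genes with territories no longer than its own had as many. Whatever their territory, 250 genes, OTX2 among them, had at least 2.

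**Figure D3:**
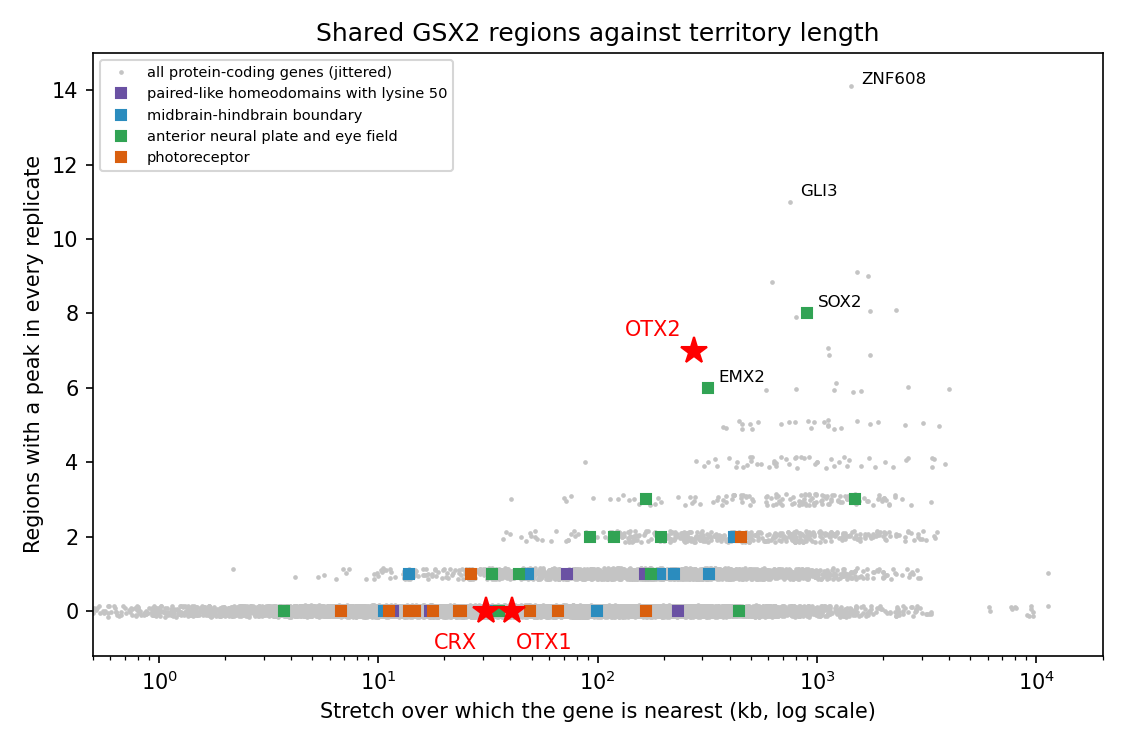
Number of regions with a peak in every replicate (vertical axis) against the stretch over which each protein-coding gene is nearest (kb, log scale); grey points are all genes with a small vertical jitter, squares are the related gene lists and stars are OTX2, OTX1 and CRX. OTX2, with 7 regions in 274 kb, lies left of all genes with as many, and OTX1 and CRX are at 0.

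The territory of OTX2 ends at position 57005493 on its upstream side. The first region beyond it had a peak in every replicate and stood 258 kb from OTX2 and 132 kb from EXOC5 (chr14:57068563-57068872). Its fold enrichment was 8.40, 7.30 and 11.9, a mean of 9.19 ± 2.39 (SD, n = 3). On the other side, the nearest region of every replicate was inside TMEM260, 151 kb away (chr14:56648266-56649273), with 8.02, 8.58 and 11.1. Both lie within the range of the OTX2 regions in fold enrichment. EXOC5 and TMEM260 had 1 region of every replicate each, over territories of 263 and 291 kb, close to that of OTX2.

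OTX1 had 1 region, at the end of the gene and not at its start. OTX1 spans chr2:63049735-63057831 and is transcribed toward higher coordinates, and the region (chr2:63057771-63058314) crossed its 3′ end. Only the peak of replicate 1 reached into the gene, and that of replicate 2 (63057902-63058227) began beyond it. The fold enrichment was 6.96 in replicate 1, where the peak had 2 summits, and 4.55 in replicate 2, and replicate 3 had no peak. The value of replicate 2, with a −log10 q of 3.00, was at the limit of the list and above only 1.31% of that replicate's peaks. The territory of OTX1 is 40.6 kb, and 95.4% of the 2275 other genes with territories within 1.2 times as long or as short had no region of every replicate.

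A stronger region lay next to OTX1 but inside EHBP1, a gene of endocytic transport that ends 3.25 kb from it. This region (chr2:63013553-63014228) stood 35.8 kb from OTX1, upstream of its start, and had fold enrichments of 11.9, 8.47 and 7.49, a mean of 9.29 ± 2.33 (SD, n = 3). By the nearest-gene rule it counts for EHBP1, and peak lists hold no measure that links a region to a gene.

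CRX had 1 region, seen in replicate 1 alone. CRX spans chr19:47821937-47843324, and the region (chr19:47828797-47829035) was inside the gene, 6.99 kb from its start, with a fold enrichment of 8.02 and a −log10 q of 12.2. Replicates 2 and 3 had no peak in the CRX territory of 30.8 kb. A second peak of replicate 1 alone (chr19:47819894-47820101, fold enrichment 5.35) lay between CRX and TPRX1, a homeobox gene that arose by duplication of CRX. It was 0.934 kb from TPRX1 and 1.95 kb upstream of the CRX start, and counts for TPRX1.

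OTX2 thus had regions of every replicate and the other two did not. Over all protein-coding genes, 12.3% were nearest to at least 1 region of every replicate, 20.1% to 1 of 2 or 3 replicates, which OTX1 also reached, and 32.6% to 1 of any replicate, which all 3 genes reached. The territory of OTX2 is also the longest of the 3, and no test of a difference between the genes was made.

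Genes related to OTX2 by expression domain or its border, by homeodomain type or by a role in photoreceptors were counted in 4 lists. The shares of the lists stand beside the 12.3% of all protein-coding genes with a region of every replicate. The lists have median territories of 165, 98.8, 72.4 and 23.5 kb, in the order in which they follow, against 54.7 kb for all genes, so the shares are not matched for length. The lists were also chosen with earlier results of these data known, so the shares are a description and not a test. Genes of the anterior neural plate and eye field, which act in the OTX2 domain, had a region of every replicate at 10 of 13 members (76.9%), with 29 such regions in all. SOX2, a core factor gene of neural stem cells, had 8 of these and EMX2 6. The strongest of SOX2 had fold enrichments of 28.2, 24.1 and 34.6, and that of PAX6, an eye field and dorsal telencephalon regulator, had 13.7, 25.5 and 17.1. The strongest of EMX2 was 1.35 kb from the gene, with fold enrichments of 9.95, 14.9 and 12.6. FEZF1, a zinc finger repressor gene of the forebrain, had its strongest region 1.84 kb away, with 20.6, 21.3 and 27.5. SOX2, PAX6 and FEZF1 thus had strongest regions above the strongest of OTX2 in each replicate.

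Lower values were found at other members of that list. HESX1, a homeobox repressor gene of the anterior neural plate, held a region inside its span with 10.7, 9.08 and 14.7. SIX3, an eye field homeobox gene, had one 4.00 kb away with 6.87, 6.78 and 8.20. The region inside LHX2, a homeobox gene of the optic vesicle, was weak, with 4.43, 4.62 and 5.96 and a mean of 5.01 ± 0.833 (SD, n = 3). The eye genes RAX, SIX6 and MITF had no region of every replicate.

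Genes of the midbrain-hindbrain boundary, which lies at the caudal edge of the OTX2 domain, had a region of every replicate at 6 of 9 members (66.7%). FGF8, the secreted signal of that boundary, held one inside its span with 10.1, 7.65 and 7.69. At WNT1, a ligand gene of the midbrain side, the values were 12.2, 6.30 and 4.73 at 4.45 kb, with replicate 1 far above the others. EN1 had 2 regions of every replicate, the stronger 2.13 kb away with 14.5, 10.6 and 8.11. LMX1B held one inside its span with 15.0, 13.3 and 12.8, the highest mean of the list. PAX2 and PAX5 had 1 each, with mean fold enrichments of 10.9 and 7.39. GBX2, which meets OTX2 at the boundary, EN2 and FGF17 had no region of every replicate.

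The closest relatives of OTX2 by homeodomain type, paired-like factors with lysine at position 50, had a region of every replicate at 2 of 5 members (40%). PITX1 had one 81.1 kb away with 15.6, 15.8 and 18.7, above every OTX2 region in each replicate. DMBX1, a homeobox gene of the midbrain, held one with 10.2, 9.62 and 11.2. GSC, GSC2 and PITX3 had no such region. Photoreceptor genes, targets of OTX2 and CRX in the retina, had 2 of 12 (16.7%), a share near that of all genes. They were PRDM1, a zinc finger repressor gene that acts in photoreceptor fate and in lymphocytes, with 9.50, 13.1 and 10.9, and NRL, the determinant of rods, with 5.14, 12.2 and 10.5.

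**Figure D4:**
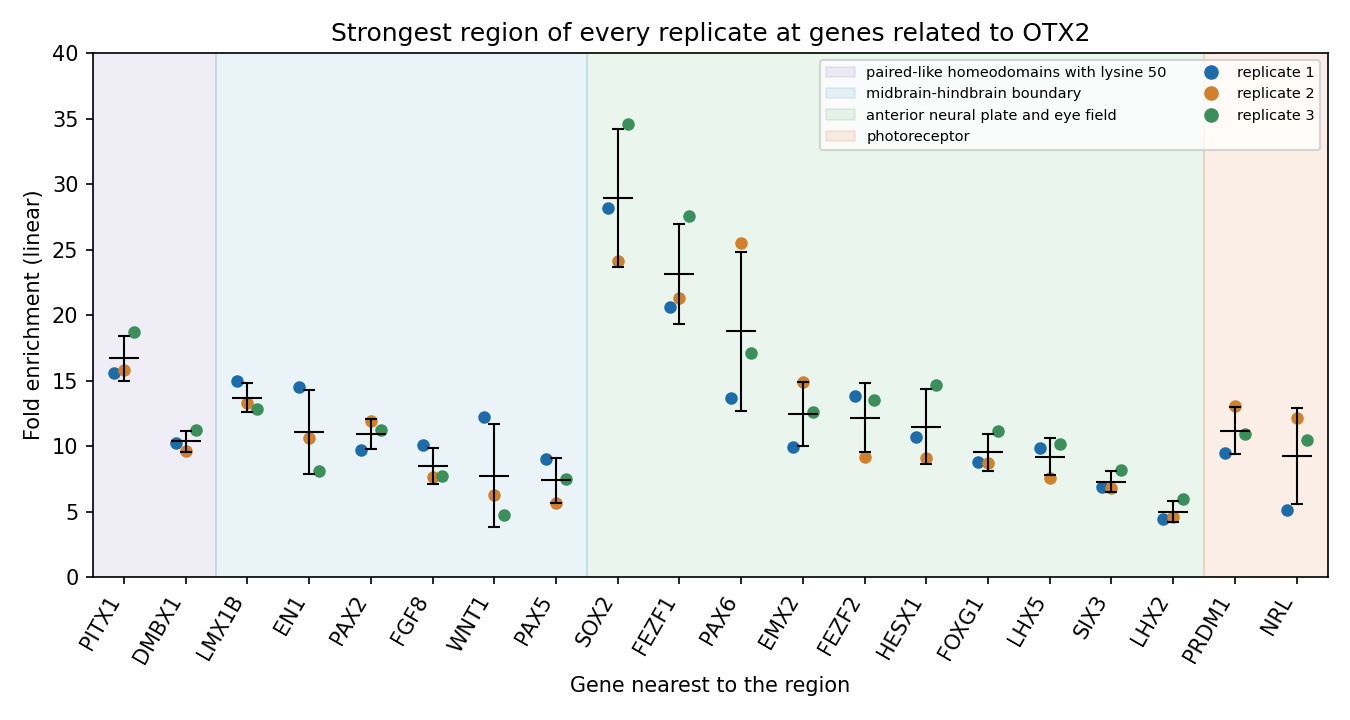
Fold enrichment (linear) per replicate of the strongest region of every replicate at each related gene that had one, grouped by list; bars are the mean and SD of 3 replicates. Values run from 4.43 at LHX2 to 34.6 at SOX2, and the replicates of WNT1 and NRL spread widely.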

How the data were processed

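GSX2 occupancy was read from 3 deposited narrow-peak lists, 1 per ChIP replicate, on hg38. Per the submitters' processing notes, MACS3 was among the tools, with Bowtie2, SAMtools, Trim Galore and deepTools; versions, settings and any use of the input as control are not given in the sources at hand. In the lists the authors deposited, fold enrichment is a linear ratio to the peak caller's background, significance is a −log10 p and −log10 q, and the score column was not used. The lowest −log10 q of the deposited lists was 3, a q-value of 0.001. Replicates are numbered in the labels with no word on separate cultures, so the SD may be partly technical.

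An interval with several summits was represented by its strongest, and chromosomes 1 to 22 and X were used. Genes came from RefSeq (GRCh38.p14, 19974 protein-coding); a summit inside several spans went to the shorter gene. Strands and promoter windows came from the RefSeq promoter table, cut to the 250 bases before each start. The members and lists were chosen with earlier results of these data known. All 39 list symbols used matched, and 2 further list genes are not reported here. Genes named are the members, their flanking genes, list members, and the 3 genes with the same count as OTX2 and the nearest territory length. List genes are given by their strongest region. Alternatives changed the threshold, the joining of peaks, the choice of nearest gene and the replicates. Merging and assignment were tested on simulated data and against a brute-force search. Python 3.11.15, pandas and matplotlib were used.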

Additional observations from a re-analysis of the deposited data

How the results depend on the processing

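Each of 11 results was recomputed under 10 alternatives, and 95 of 110 values stayed within 1.5 times the main count or 1 SD of the main fold enrichment. The 95 include values that could not change, such as the 0 regions of every replicate at CRX, which had a peak in replicate 1 alone. When peaks under a −log10 q of 10 were dropped, OTX2 had 8 regions and 2 of every replicate, OTX1 had 0 regions, and the lists of midbrain-hindbrain boundary and photoreceptor genes had 3 and 1 members with a region of every replicate. With noncoding genes admitted as nearest gene, OTX2 had 3 regions and 1 of every replicate (6.76-fold), because OTX2-AS1 and its neighbours took the others, and the eye field and lysine 50 lists had 6 and 1 members. Distance to the nearer gene end left 1 photoreceptor gene. With each summit kept as its own peak, OTX1 had 2 regions. Leaving out 1 replicate gave 13 to 14 regions at OTX2 with 6 to 8 in both remaining replicates. It gave 0 to 1 regions at CRX and 0 to 1 of both remaining replicates at OTX1 (1 without replicate 3). Without replicate 1, CRX had 0 regions. Counting regions of 2 or 3 replicates, chosen after seeing the data, gave 1 at OTX1. No other gene with a territory as short had as many regions as OTX2 under 8 of the 9 alternatives that keep protein-coding genes, the exception being the −log10 q of 10, with 57. Whatever their territory, genes with at least as many, OTX2 included, numbered 13 in the main setting. They numbered 250 at the −log10 q of 10 and 13 to 45 under the other 8 alternatives. No paired analysis was possible because the input samples that share the replicate numbers have no values here. Depth is unknown, so the part of depth in missing peaks was not tested.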

Other observations

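Fold enrichment in the lists took a limited set of values. In replicate 1, regions 4 and 7 of OTX2 and the region between OTX2 and EXOC5 had the same fold enrichment of 8.40 and the same −log10 q of 13.3, and 42 of the 9859 peaks of that replicate shared this fold enrichment. The 9859, 7471 and 9122 peaks of replicates 1, 2 and 3 held 2306, 1826 and 2178 distinct values.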
